A study of Mus musculus with 10 samples.

Results

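Chemokine ligands are small secreted proteins that steer cell migration. The set described here is the 31 chemokine genes *Ccl2*, *Ccl3*, *Ccl4*, *Ccl5*, *Ccl6*, *Ccl7*, *Ccl8*, *Ccl9*, *Ccl11*, *Ccl12*, *Ccl17*, *Ccl20*, *Ccl22*, *Ccl24*, *Ccl25*, *Ccl28*, *Cxcl1*, *Cxcl2*, *Cxcl3*, *Cxcl5*, *Cxcl9*, *Cxcl10*, *Cxcl11*, *Cxcl12*, *Cxcl13*, *Cxcl14*, *Cxcl15*, *Cxcl16*, *Cx3cl1*, *Pf4* and *Ppbp*. They were chosen by gene symbol from 17813 genes that had a probe set naming 1 gene, and each is measured by 1 probe set. The study compared distal tip cells of the mouse lung late and early in development, to look for signals that could set alveolar fate. The E17.5 group held 5 arrays of GFP+ cells. These were taken by flow sorting from embryos of the genotype *Id2-CreER; Rosa26R-fGFP*, whose mothers received 150 µg tamoxifen per gram of body weight at E16.5. In these embryos Cre recombinase is driven from *Id2*, so that the GFP label marks cells that expressed *Id2* at that time, and it is inherited by their progeny. The lungs were dissociated with trypsin and EDTA before sorting. The E11.5 group held 5 arrays of tip epithelium microdissected by hand after a short dispase treatment, from embryos given the same genotype in the labels. The stage and the isolation method cannot be told apart. Arrays of a stage are labelled as biological replicates with no mention of litters, so p-values measure the spread between these arrays.

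Chemokines are named by the spacing of their first cysteines (CC, CXC and CX3C) and act on receptors of leukocytes and of some stromal, endothelial and epithelial cells. Some, such as *Cxcl12*, are made steadily and guide cells in development. Many others are induced by cytokines or microbial products through the transcription factor NF-κB, and draw neutrophils, monocytes or lymphocytes into tissue. In the lung they are made by airway and alveolar epithelium, by macrophages and by stromal and endothelial cells. The members were therefore divided by their best known source, into 8 genes known from lung epithelium, 13 from leukocytes and platelets, and 10 from stroma or from several cell types. Several members, *Cxcl1* and *Cxcl2* among them, have more than 1 known source, so this division is a guide and not a measurement.

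All values are log2 signals of a probe set as deposited, and differences are E17.5 minus E11.5. Differences were tested with limma, and those with a Benjamini-Hochberg adjusted p under 0.05 over all 17813 genes are said to pass, or called higher or lower. Array medians were 7.14 to 7.23 at E17.5 and 7.01 to 7.14 on E11.5 arrays, and upper quartiles were at most 10.04 at E17.5 and 9.46 at E11.5. The table gives no detection calls. Genes of 72 olfactory, vomeronasal and trace amine receptors (nose receptor genes), which are not known to act in lung, were used to judge background. The 95th percentile of their mean signal was 4.69 at E17.5 and 4.71 at E11.5, and 2 of the 72 were called higher and 5 lower. By that limit 16 chemokine genes were above background at both stages, 11 at E17.5 only and 4 at neither stage. A gene below the limit at E11.5 has only a bound there, so its fold change is also given as at least the ratio of its E17.5 mean to the E11.5 limit.

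Of the 31 chemokine genes, 26 rose in E17.5 cells, and limma called 0 lower, also at an unadjusted p under 0.05. Of all genes tested, 36.9% were higher and 31.5% lower, although fewer were higher than lower after quantile normalization or median centring. Counts of called genes in the lists below stand against these shares. Every E17.5 array lay above every E11.5 array for 23 of the 31, against 32.3% of all genes. The median difference was 2.60 on the log2 scale, and that of all genes was 0.03. A rise of at least 4-fold was found for 18 members, and for 13.3% of all genes. The members known from lung epithelium had 7 of 8 higher and a median difference of 1.52. Those known from leukocytes and platelets had 11 of 13 higher and a median of 3.30, and those of stroma or several cell types 8 of 10 and a median of 2.62. Whether the 3 groups differ was not tested. The order of their medians changed when dim genes were left out, a filter that keeps members low at E11.5 only where E17.5 is high. The 5 genes that did not pass were *Cxcl5*, *Ccl8*, *Ppbp*, *Cxcl9* and *Cxcl13*. In these samples, which are pools of cells, more cells of a type and more RNA per cell cannot be told apart.

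**Figure D1:**
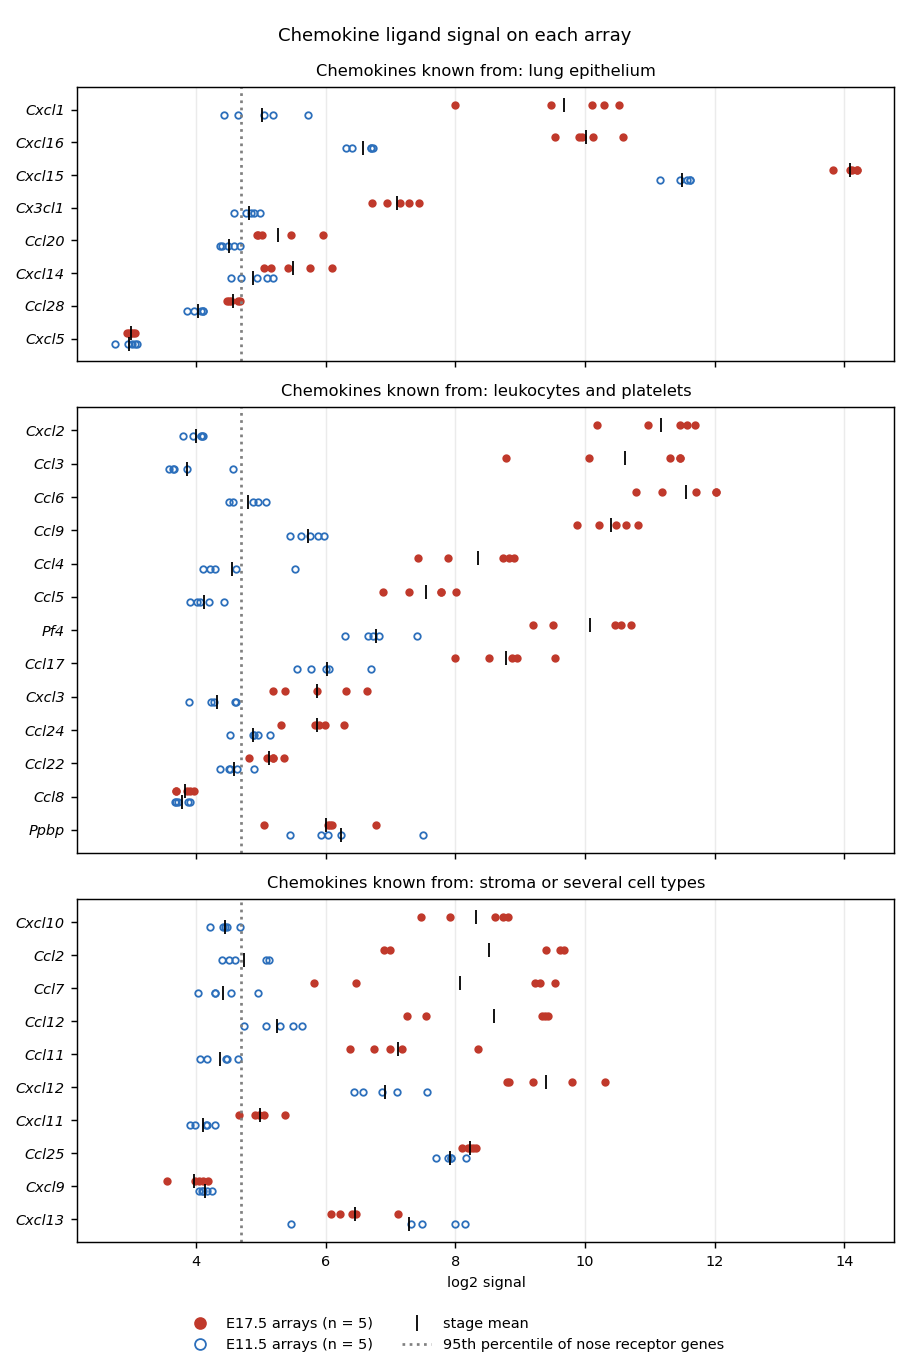
Log2 signal (x axis) of each chemokine gene on the 5 E17.5 arrays (red, upper points of each row) and the 5 E11.5 arrays (blue open, lower points), with a tick at each stage mean, in 3 panels by known source. The dotted line is the 95th percentile of nose receptor genes at E17.5 (4.69). *Cxcl15* lies at the right end on all 10 arrays, while most genes of leukocytes lie near or left of the dotted line at E11.5 only.

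The chemokine genes best known from lung epithelium mostly rose. Those above background at both stages that passed did so by 1.53-fold to 25.5-fold. *Cxcl15*, which encodes lungkine, a CXC chemokine of mouse airway and alveolar epithelium that attracts neutrophils into the airspace, had log2 signals of 14.20, 14.12, 14.20, 13.82 and 14.09 on E17.5 arrays 1 to 5, against 11.57, 11.62, 11.16, 11.62 and 11.47 on E11.5 arrays 1 to 5. Its signal was high on all arrays of both stages, and the stages did not overlap. The rise was 6.06-fold (log2 difference 2.60, standard error 0.11, adjusted p = 7.8e-10 from limma). *Cxcl16*, a membrane-bound chemokine and scavenger receptor that is shed to attract cells with CXCR6, had 10.59, 10.12, 9.96, 9.54 and 9.90 at E17.5, against 6.31, 6.69, 6.41, 6.73 and 6.70 at E11.5. That is an 11.0-fold rise (log2 difference 3.45, standard error 0.17, adjusted p = 2.8e-09 from limma). *Cx3cl1*, which encodes fractalkine, the membrane-bound ligand of CX3CR1, had 7.14, 6.71, 7.43, 7.28 and 6.94 at E17.5, against 4.89, 4.59, 4.99, 4.85 and 4.77 at E11.5. It rose 4.86-fold (adjusted p = 1.5e-08 from limma) from a level just above background. Over the E17.5 arrays these 3 genes had ranges of 0.38, 1.05 and 0.72, and the median range over all genes was 0.53.

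*Cxcl1*, a neutrophil attractant that airway epithelium and macrophages can both make, behaved differently within E17.5. It had 10.29, 10.11, 10.53, 8.0 and 9.47 on E17.5 arrays 1 to 5, against 5.72, 5.19, 4.43, 4.65 and 5.05 on E11.5 arrays. The stages did not overlap, and the rise was 25.5-fold (log2 difference 4.67, standard error 0.43, adjusted p = 8.6e-07 from limma), but array 4 was the lowest of its stage by over 1 unit. The remaining epithelial genes were dim and changed less. *Ccl20*, whose product attracts cells with CCR6 to mucosal surfaces, had 5.96, 5.02, 4.95, 4.94 and 5.46 at E17.5, against 4.58, 4.49, 4.67, 4.37 and 4.39 at E11.5, where it was not above background. Its rise was at least 1.47-fold (log2 difference 0.76, adjusted p = 0.0027 from limma). *Ccl28*, a mucosal chemokine for cells with CCR10, had 4.64, 4.48, 4.53, 4.51 and 4.67 at E17.5, against 3.86, 4.11, 4.11, 3.96 and 4.08 at E11.5. Every E17.5 array was above every E11.5 array and the gene was called (log2 difference 0.54, adjusted p = 9.6e-05 from limma), yet both stage means were within the background. *Cxcl14*, which is made steadily by many epithelia, had 5.15, 5.75, 5.42, 5.05 and 6.10 at E17.5, against 5.19, 4.69, 4.93, 5.09 and 4.53 at E11.5. Its stages overlapped, and the difference of 0.61 passed (adjusted p = 0.018 from limma) but not with the replicate number as a block (adjusted p = 0.061).

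*Cxcl5*, a neutrophil attractant of alveolar type 2 cells in the inflamed adult lung, was at the bottom of the scale at both stages. It had 2.99, 2.93, 3.05, 2.96 and 3.03 at E17.5, against 3.01, 2.95, 3.08, 2.74 and 3.05 at E11.5. The difference was 0.03 with a standard error of 0.08 (adjusted p = 0.80 from limma).

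**Figure D2:**
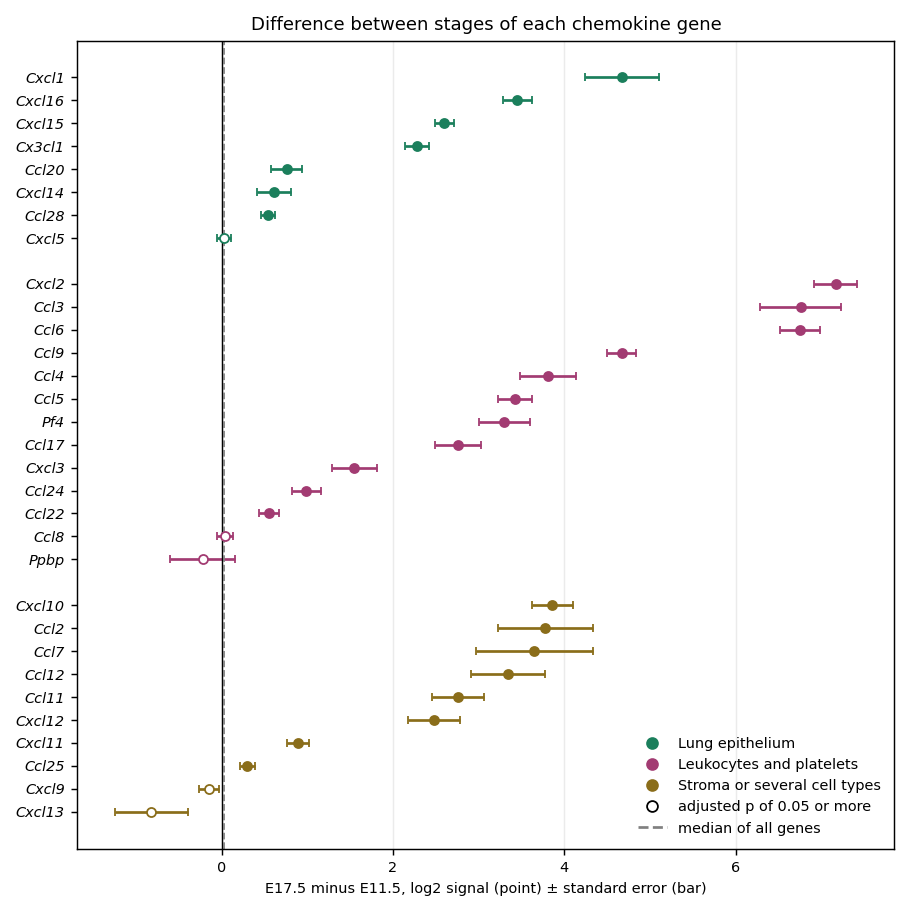
Difference of the mean log2 signal, E17.5 minus E11.5 (x axis), of each chemokine gene, with its standard error from limma as a bar, coloured by known source. Open points are the 5 genes that did not pass, and the dashed line is the median of all genes (0.03). Differences reach 4.67 (*Cxcl1*) among epithelial genes, 7.17 (*Cxcl2*) among genes of leukocytes and 3.86 (*Cxcl10*) among the others.

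Among the genes known from leukocytes and platelets, the largest rises were those of *Cxcl2*, *Ccl3*, *Ccl6* and *Ccl9*. *Cxcl2*, a neutrophil attractant of activated macrophages, had 11.69, 11.57, 11.47, 10.18 and 10.97 on E17.5 arrays 1 to 5, against 4.09, 3.95, 3.80, 4.08 and 4.10 on E11.5 arrays. It was not above background at E11.5, and the rise was at least 88.4-fold (log2 difference 7.17, standard error 0.25, adjusted p = 9.3e-11 from limma). *Ccl3*, a macrophage chemokine that acts on CCR1, had 11.31, 11.46, 11.47, 8.78 and 10.06 at E17.5, against 3.86, 3.65, 4.56, 3.58 and 3.64 at E11.5, a rise of at least 60-fold (log2 difference 6.76, standard error 0.47). *Ccl6*, a rodent chemokine made by macrophages and other myeloid cells, had 12.02, 12.02, 11.71, 10.79 and 11.19 at E17.5, against 4.50, 4.57, 5.08, 4.88 and 4.96 at E11.5. *Ccl9*, its rodent relative, had 10.48, 10.81, 10.63, 9.88 and 10.21 at E17.5, against 5.97, 5.45, 5.75, 5.88 and 5.61 at E11.5. In each of these 4 genes the stages lay far apart, and E17.5 array 4 was lowest and array 5 next lowest.

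*Ccl4*, *Ccl5*, *Ccl17* and *Pf4* also rose without overlap of the stages. *Ccl4*, a macrophage chemokine related to *Ccl3*, lay at 7.42 to 8.90 in E17.5 cells and 4.11 to 5.52 in E11.5 tips. *Ccl5*, which T cells and other leukocytes make, lay at 6.88 to 8.01 in E17.5 cells and 3.91 to 4.43 in E11.5 tips. Unlike the macrophage genes above it was lowest on array 5, and array 4 stood at 7.77, level with array 3. *Ccl17*, a dendritic cell chemokine for CCR4, lay at 8.0 to 9.54 in E17.5 cells and 5.56 to 6.69 in E11.5 tips. *Pf4*, which encodes platelet factor 4, lay at 9.19 to 10.71 in E17.5 cells and 6.29 to 7.41 in E11.5 tips, a 9.88-fold rise (adjusted p = 8.8e-07 from limma).

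Smaller rises were found for *Cxcl3*, *Ccl24* and *Ccl22*. *Cxcl3*, the third of the closely related neutrophil attractants beside *Cxcl1* and *Cxcl2*, had 6.63, 6.31, 5.86, 5.19 and 5.37 at E17.5, against 4.28, 4.22, 3.89, 4.61 and 4.60 at E11.5, a rise of at least 2.24-fold (adjusted p = 0.0002 from limma). *Ccl24*, an eosinophil attractant that macrophages make, had 5.89, 6.28, 5.99, 5.83 and 5.31 at E17.5, against 4.52, 4.87, 5.14, 4.95 and 4.89 at E11.5 (log2 difference 0.99). The stages were close but did not overlap. *Ccl22*, a CCR4 ligand of dendritic cells and macrophages, had 5.35, 4.81, 5.19, 5.19 and 5.09 at E17.5, against 4.63, 4.52, 4.89, 4.50 and 4.37 at E11.5. Its stages overlapped, and the difference of 0.55 passed (adjusted p = 0.0016 from limma).

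*Ppbp*, the other platelet chemokine, had 6.09, 6.78, 6.06, 5.05 and 6.04 at E17.5, against 5.44, 6.23, 7.50, 6.04 and 5.92 at E11.5. The stages overlapped (log2 difference -0.22, standard error 0.38, adjusted p = 0.63 from limma), and E11.5 array 3 was the highest of all 10. *Pf4* was also highest of its stage on E11.5 array 3 (7.41). Of 11 megakaryocyte and platelet markers measured, 6 were higher and 2 (*Itgb3* and *Tubb1*) were lower. These are 54.5% and 18.2%, against 36.9% and 31.5% of all genes. The mean of the list was 5.27 to 5.66 on E17.5 arrays and 5.03 to 5.42 on E11.5 arrays. The integrin gene *Itga2b* had a difference of 0.66. *Ccl8*, a monocyte chemokine, stayed within background, with 3.69, 3.86, 3.90, 3.68 and 3.97 at E17.5, against 3.67, 3.69, 3.72, 3.91 and 3.88 at E11.5 (log2 difference 0.04, standard error 0.09).

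Among the genes of stroma or several cell types, the monocyte attractants and *Cxcl10* rose most. *Cxcl10*, an interferon-induced chemokine for CXCR3, had 8.74, 8.61, 8.81, 7.47 and 7.92 at E17.5, against 4.21, 4.48, 4.45, 4.68 and 4.41 at E11.5, a rise of at least 12.1-fold (log2 difference 3.86, adjusted p = 2e-08 from limma). *Ccl2*, the main ligand of CCR2 on monocytes, had 9.68, 9.62, 9.39, 6.89 and 6.99 at E17.5, against 4.51, 4.39, 5.07, 4.60 and 5.12 at E11.5. *Ccl7*, another CCR2 ligand, had 9.30, 9.22, 9.54, 5.81 and 6.46 at E17.5, against 4.29, 4.53, 4.95, 4.02 and 4.29 at E11.5. *Ccl12*, the mouse relative of both, had 9.43, 9.33, 9.38, 7.55 and 7.25 at E17.5, against 5.50, 5.08, 5.29, 5.63 and 4.73 at E11.5. All 3 passed (adjusted p = 6.1e-05, 0.00043 and 2e-05 from limma) with no overlap of the stages. For each of them arrays 4 and 5 were the lowest of E17.5, by over 1 unit.

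*Ccl11*, the eosinophil attractant eotaxin of fibroblasts, lay at 6.38 to 8.34 at E17.5 and 4.05 to 4.65 on E11.5 arrays, a rise of at least 5.33-fold. *Cxcl12*, a stromal chemokine that guides progenitor cells, vessels and neurons through CXCR4, had 8.80, 9.80, 9.19, 8.83 and 10.31 at E17.5, against 7.56, 6.44, 6.86, 7.09 and 6.58 at E11.5. It rose 5.57-fold (log2 difference 2.48, standard error 0.30, adjusted p = 1.2e-05 from limma), and its highest E17.5 arrays were 5 and 2. *Cxcl11*, another interferon-induced CXCR3 ligand, had 4.91, 4.97, 5.37, 4.66 and 5.05 at E17.5, against 4.29, 3.98, 4.16, 4.15 and 3.91 at E11.5, a rise of at least 1.22-fold. The RefSeq annotation of the C57BL/6J reference strain lists *Cxcl11* as a transcribed pseudogene. *Ccl25*, a chemokine of thymic and gut epithelium for CCR9, had 8.23, 8.10, 8.27, 8.31 and 8.19 at E17.5, against 7.70, 7.93, 7.88, 7.93 and 8.16 at E11.5. Its stages overlapped, and the difference of 0.30 passed (adjusted p = 0.014 from limma) but was -0.04 after quantile normalization and 0.17 after median centring, and did not pass in either.

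*Cxcl9* and *Cxcl13* did not pass. *Cxcl9*, the third interferon-induced CXCR3 ligand, was within background with 4.04, 3.55, 4.11, 4.18 and 3.98 at E17.5, against 4.10, 4.04, 4.24, 4.16 and 4.09 at E11.5. *Cxcl13*, which attracts B cells through CXCR5 and is made by stroma of lymphoid tissue and by some macrophages, had 6.22, 7.11, 6.40, 6.46 and 6.08 at E17.5, against 8.15, 5.46, 7.48, 7.31 and 7.99 at E11.5. Its difference was -0.82 with a standard error of 0.43 (adjusted p = 0.11 from limma). E11.5 array 2 was the only array of that stage below the highest E17.5 array, and without it the difference was -1.28 and passed (adjusted p = 0.00047).

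**Figure D3:**
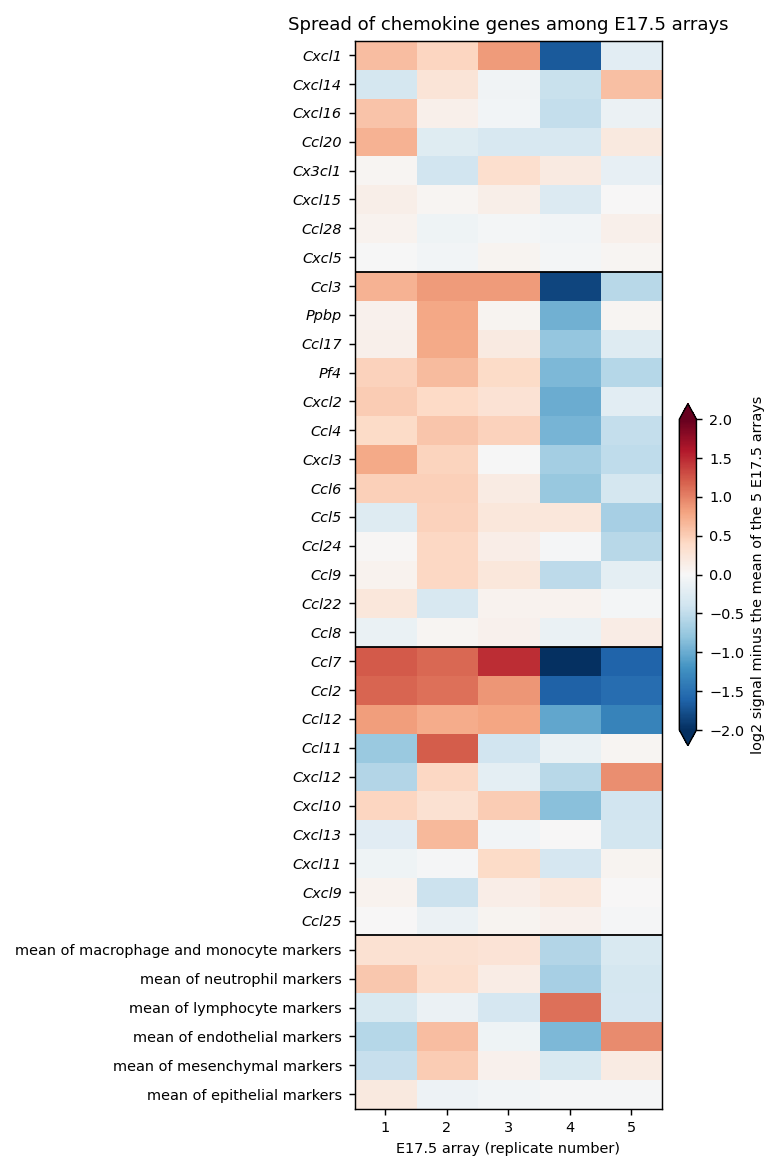
Log2 signal minus the mean of the 5 E17.5 arrays (colour, cut at 2 in either direction) for each chemokine gene (rows, in the 3 source groups, widest range first) and for the mean of 6 marker lists, on each E17.5 array (columns). *Ccl2*, *Ccl7* and *Ccl12* are low on arrays 4 and 5 together with the macrophage and neutrophil means. *Cxcl12* is high on arrays 2 and 5, where the endothelial and mesenchymal means are also highest.

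The E17.5 arrays did not carry the chemokine signals evenly. The median range of a member over the 5 E17.5 arrays was 1.13, against 0.53 over all genes. It ran from 0.12 for *Cxcl5* to 3.74 for *Ccl7*. Array 4 was the lowest of the 5 for 19 of the 31 members, and for 10 of the 13 genes of leukocytes and platelets. Over all genes it was the lowest for 23.2%. Among the marker lists described below, it was the lowest for 16 of 22 macrophage and monocyte markers and 9 of 11 neutrophil markers. The same held for 11 of 13 endothelial markers and 7 of 12 distal tip and alveolar type 2 markers. It was the lowest for 3 of 11 pan-epithelial and lung epithelial markers and 0 of 14 lymphocyte markers. When arrays 4 and 5 were left out, a choice made after their values were seen, 25 of the 31 were higher, and *Ccl25* was the gene that no longer passed.

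Markers of several other cell types were higher at E17.5 as well. The list means of macrophages and neutrophils were lowest on arrays 4 and 5. Those of endothelium and of distal tip and alveolar type 2 markers were lowest on array 4. The pan-leukocyte gene *Ptprc* had 8.87, 9.09, 8.98, 8.81 and 8.51 at E17.5, against 4.70, 4.00, 4.15, 4.16 and 4.25 at E11.5. Of the 22 markers of macrophages and monocytes, limma called 19 higher and *Cx3cr1* lower. *Csf1r*, the receptor gene for their growth factor, had 11.10, 11.78, 12.39, 11.44 and 10.68 on E17.5 arrays 1 to 5, against 6.5 to 8.15 in E11.5 tips. It was lowest on array 5, but array 4 stood above array 1. The mean of that list was 9.12, 9.12, 9.08, 8.22 and 8.50 on E17.5 arrays 1 to 5, against 5.39 to 6.13 on E11.5 arrays, so that arrays 4 and 5 were lowest there too. Of 11 neutrophil markers, 8 were higher and *Mpo* was lower, and the list averaged 6.56 to 7.77 over E17.5 arrays and 4.54 to 5.39 over E11.5 arrays. The calprotectin genes *S100a8* and *S100a9* led these, and *Elane*, a protease of immature neutrophils, was within background (3.75 to 4.32 in E17.5 cells and 3.80 to 4.43 in E11.5 tips). Of 14 lymphocyte markers, 10 were higher, *Cd79a* was lower and 3 were not called. The largest rises were those of *Gzma* (log2 difference 6.32), *Cd79b* (4.30) and *Gzmb* (3.10), each without overlap of the stages. The list mean was 5.92 to 6.14 on 4 of the E17.5 arrays but 7.36 on array 4, and 4.26 to 4.50 on E11.5 arrays. On that E17.5 array the T cell receptor gene *Cd3e* reached 8.48, against 4.08 to 5.07 on the other E17.5 arrays and at most 4.21 at E11.5, and its difference of 1.26 did not pass, but that of 0.49 without array 4 did (adjusted p = 0.0272 from limma). Of 7 dendritic cell markers 2 were higher and *Zbtb46* was lower (28.6% and 14.3%), below the shares of all genes. Of 7 mast cell markers 5 were higher, with *Cpa3* at 8.47 to 9.99 in E17.5 cells and 4.59 to 6.63 in E11.5 tips, and 2 (*Kit* and *Ms4a2*) were lower. The calls of *Cd79a* (adjusted p = 0.035 from limma) and *Kit* (0.041) were lost with array weights (0.0782 and 0.106), and when some single arrays were left out: E11.5 arrays 1, 2 or 3 or E17.5 arrays 2 or 4 for *Cd79a* (up to 0.0903), and any array but E17.5 arrays 2 and 5 for *Kit* (up to 0.0944). The part of these cells in the chemokine signals, and that of the endothelial and stromal cells described next, was not tested.

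Markers of the vessel wall were higher too. Of 13 endothelial markers, 11 were higher, with a list mean of 9.39, 10.58, 9.87, 9.06 and 10.90 on E17.5 arrays 1 to 5, against 5.93 to 6.91 on E11.5 arrays. Arrays 5 and 2 were highest, as for *Cxcl12*, and the mesenchymal and mast cell list means were highest on these arrays too. *Pecam1*, an adhesion molecule of endothelium, was at 9.50 to 11.85 on E17.5 arrays and 5.03 to 5.96 on E11.5 arrays. Of the mesenchymal list, 5 of 13 genes rose and 4 fell (38.5% and 30.8%), close to the shares of all genes (36.9% and 31.5%). Its mean was 8.24, 9.21, 8.79, 8.39 and 8.86 on E17.5 arrays 1 to 5, and 7.30 to 8.32 on E11.5 arrays. At E17.5 this mean was lowest on array 1, as *Cxcl12* was. The collagen gene *Col1a1* did not pass (log2 difference 0.57), but did so without E17.5 array 1 (0.85, adjusted p = 0.0405 from limma). Mean signals were above background at both stages for 13 of 13 endothelial and 10 of 13 mesenchymal markers. Markers of the epithelium that the samples are labelled as were also present on every array. *Epcam* lay at 13.13 to 13.50 in E17.5 cells and 11.34 to 11.52 in E11.5 tips, *Nkx2-1* at 9.18 to 10.11 and 8.73 to 9.79, and *Sftpc* at 14.66 to 14.78 and 11.95 to 12.35. The mean of 11 epithelial markers was 12.47 to 12.76 on E17.5 arrays and 12.01 to 12.26 on E11.5 arrays. Of these markers 5 rose and 3 fell (45.5% and 27.3%), not far from the shares of all genes. Of 12 distal tip and alveolar type 2 markers, 9 were higher and 2 (*Etv5* and *Lpcat1*) were lower. *Lpcat1*, an enzyme gene of surfactant lipid synthesis, was at 3.06 to 3.32 in E17.5 cells, within background, and at 7.81 to 7.98 in E11.5 tips, on 1 probe set. By staining, the paper instead found LPCAT1 protein in tip progenitors from E16.5 on, and more of it in alveolar type 2 cells. The reason for this difference between probe set and protein was not tested. 

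**Figure D4:**
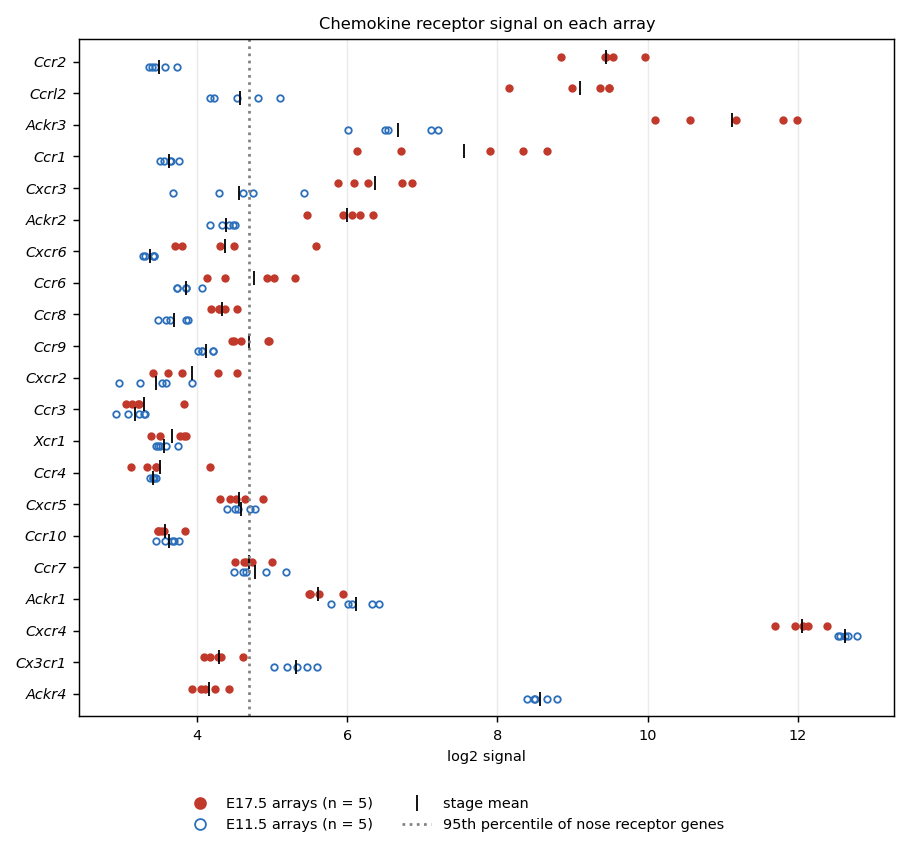
Log2 signal (x axis) of each chemokine receptor gene on the 5 E17.5 arrays (red) and the 5 E11.5 arrays (blue open), ordered by the difference between stages, with ticks at stage means and the limit of nose receptor genes dotted. *Ccr2* is separated most at the top, and *Ackr4* most at the bottom, where E17.5 is the lower stage.

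The receptors of these ligands changed less evenly. Of 21 receptor genes measured, 10 were higher and 4 were lower (47.6% and 19%, against 36.9% and 31.5% of all genes). Their median difference was 0.47, and 9 were within background at both stages. *Ccr2* and *Cx3cr1* also stand in the macrophage list, and *Cxcr2* in the neutrophil list. *Ccr2*, the receptor of *Ccl2*, *Ccl7* and *Ccl12* on monocytes, had 9.96, 9.54, 9.44, 8.84 and 9.43 at E17.5, against 3.74, 3.36, 3.57, 3.44 and 3.40 at E11.5, a rise of at least 26.6-fold (log2 difference 5.94). *Ccr1*, a receptor of *Ccl3*, *Ccl5*, *Ccl6* and *Ccl9*, was at 6.13 to 8.66 at E17.5, lowest on array 4, and at 3.51 to 3.76 at E11.5. *Ccrl2*, a chemerin-binding member of the receptor family, rose by 4.52 on the log2 scale. *Ackr3*, an atypical receptor that takes up *Cxcl12*, had 10.56, 11.80, 11.17, 10.10 and 11.99 at E17.5, against 7.12, 6.01, 6.5, 6.54 and 7.21 at E11.5. It rose 21.8-fold, and its order over the E17.5 arrays was that of the endothelial list mean.

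*Cxcr4*, the signalling receptor of *Cxcl12*, went the other way and was bright at both stages. It had 12.07, 12.38, 12.13, 11.69 and 11.96 at E17.5, against 12.62, 12.79, 12.67, 12.53 and 12.56 at E11.5, and fell by 0.59 on the log2 scale (adjusted p = 0.00089 from limma). *Cx3cr1*, the receptor of *Cx3cl1*, had 4.17, 4.28, 4.62, 4.09 and 4.32 at E17.5, within background, against 5.20, 5.02, 5.60, 5.47 and 5.33 at E11.5. Its difference was -1.02 while that of its ligand was 2.28. *Ackr4*, a scavenging receptor that binds *Ccl25* among others, had 4.11, 4.24, 4.06, 3.93 and 4.43 at E17.5, within background, against 8.66, 8.40, 8.79, 8.49 and 8.50 at E11.5. Its signal fell by 4.41 on the log2 scale, and its E17.5 level has only a bound. *Ackr1* had a difference of -0.51 (adjusted p = 0.0052 from limma) with overlapping stages. *Cxcr2*, the receptor of *Cxcl1*, *Cxcl2* and *Cxcl3* on neutrophils, was within background at both stages (log2 difference 0.47, adjusted p = 0.089 from limma). *Ccr3*, *Ccr4* and *Ccr10*, receptors of *Ccl11* and *Ccl24*, of *Ccl17* and *Ccl22* and of *Ccl28*, were within background too. *Cxcr1* was not analysed here.

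Genes upstream of chemokine induction were mostly higher. Of 11 NF-κB subunits, inhibitors and kinases measured, 10 were higher (90.9%, against 36.9% of all genes), with a median difference of 2.18. The largest rises were those of *Tnfaip3* (5.23), which encodes an inhibitor that is itself induced by NF-κB, of *Nfkbiz* (4.52), a nuclear cofactor that is also induced, and of the kinase gene *Ikbkb* (3.89). *Ikbkg*, which encodes the regulatory subunit of the same kinase, had 3.39, 3.29, 3.36, 2.98 and 3.38 at E17.5, within background, against 7.64, 7.74, 7.57, 7.63 and 7.55 at E11.5. Its signal fell by 4.35 on the log2 scale. It rests on 1 probe set. Of 14 genes of cytokines, receptors and factors that induce chemokines, 11 were higher (78.6%). In limma 0 were lower, also at an unadjusted p under 0.05, and the median difference was 2.06. *Il1b* (5.87) and its receptor gene *Il1r1* (5.76) rose most, followed by *Il6* (4.55).

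The neutrophil attractants *Cxcl1*, *Cxcl2* and *Cxcl3* and the interferon-induced *Cxcl10* are shown by their promoter windows, because these 4 genes rose and hold matches to the NF-κB consensus near the start site. They were chosen after both were known. *Ccl9* and *Ccl20* also rose and hold a match, and are not shown. *Cxcl15* is shown beside the 4 genes as a neighbour of lung epithelium. Each window runs from 250 bases before to 50 bases after the start site, from RefSeq on build GRCm38.p6, and is written 5′ to 3′ along the gene. Capitals mark matches to the NF-κB consensus on either strand, and overlapping matches are joined.
Cxcl2: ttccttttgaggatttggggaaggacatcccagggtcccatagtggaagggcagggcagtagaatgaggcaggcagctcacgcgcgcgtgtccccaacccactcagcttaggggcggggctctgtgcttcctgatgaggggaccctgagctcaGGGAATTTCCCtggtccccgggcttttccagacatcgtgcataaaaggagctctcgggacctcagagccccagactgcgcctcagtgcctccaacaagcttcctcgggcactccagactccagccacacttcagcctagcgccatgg
Cxcl1: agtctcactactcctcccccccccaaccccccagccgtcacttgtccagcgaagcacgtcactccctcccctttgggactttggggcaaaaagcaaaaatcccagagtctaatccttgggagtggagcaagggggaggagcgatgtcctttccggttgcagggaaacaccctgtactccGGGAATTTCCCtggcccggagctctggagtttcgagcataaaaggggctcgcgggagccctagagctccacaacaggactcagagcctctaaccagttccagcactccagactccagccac
Cxcl3: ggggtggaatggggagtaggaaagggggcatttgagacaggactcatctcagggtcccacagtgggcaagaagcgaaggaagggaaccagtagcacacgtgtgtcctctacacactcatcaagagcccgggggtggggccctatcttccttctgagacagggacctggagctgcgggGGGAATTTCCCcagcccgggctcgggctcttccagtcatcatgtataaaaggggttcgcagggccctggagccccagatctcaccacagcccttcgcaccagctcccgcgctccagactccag
Cxcl10: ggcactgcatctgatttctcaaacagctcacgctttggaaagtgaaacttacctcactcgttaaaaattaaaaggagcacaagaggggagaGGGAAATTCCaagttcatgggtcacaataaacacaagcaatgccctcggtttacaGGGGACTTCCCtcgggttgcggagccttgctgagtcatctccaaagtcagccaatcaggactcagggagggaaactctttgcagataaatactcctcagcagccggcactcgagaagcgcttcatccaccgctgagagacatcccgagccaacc
Cxcl15: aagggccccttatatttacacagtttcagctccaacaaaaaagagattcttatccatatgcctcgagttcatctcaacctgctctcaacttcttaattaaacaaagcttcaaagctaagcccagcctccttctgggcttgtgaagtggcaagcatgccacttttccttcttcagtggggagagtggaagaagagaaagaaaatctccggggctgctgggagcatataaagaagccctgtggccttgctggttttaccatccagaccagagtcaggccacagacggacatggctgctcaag
The windows lie at chr5:90903649-90903948, chr5:90890995-90891294, chr5:90785851-90786150 and chr5:90794284-90794583 on the plus strand and, for *Cxcl10*, at chr5:92348840-92349139 on the minus strand. *Cxcl1*, *Cxcl2* and *Cxcl3* hold the same match, GGGAATTTCC, which starts at -71, -97 and -73 from the start site. *Cxcl10* holds GGGAAATTCC from -159 and GGGGACTTCC from -104. RefSeq windows were at hand for 22 members, in 23 windows, and 6 of these windows (26.1%) held a match, against 8.46% of 32851 windows of the same length. The other 2 were *Ccl9* and *Ccl20*. The AP-1 motif TGANTCA was found in 5 member windows (21.7%, against 7.81% of all windows), the interferon response motif (GAAA, any 2 bases, GAAA) in 2 (8.70%, against 3.44%) and the STAT motif TTCNNNGAA in 2 (8.70%, against 8.30%), on either strand. *Cxcl10* held the AP-1 and interferon motifs as well, and neither overlapped its NF-κB matches. A match is a run of letters and not a measured binding site.

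**Figure D5:**
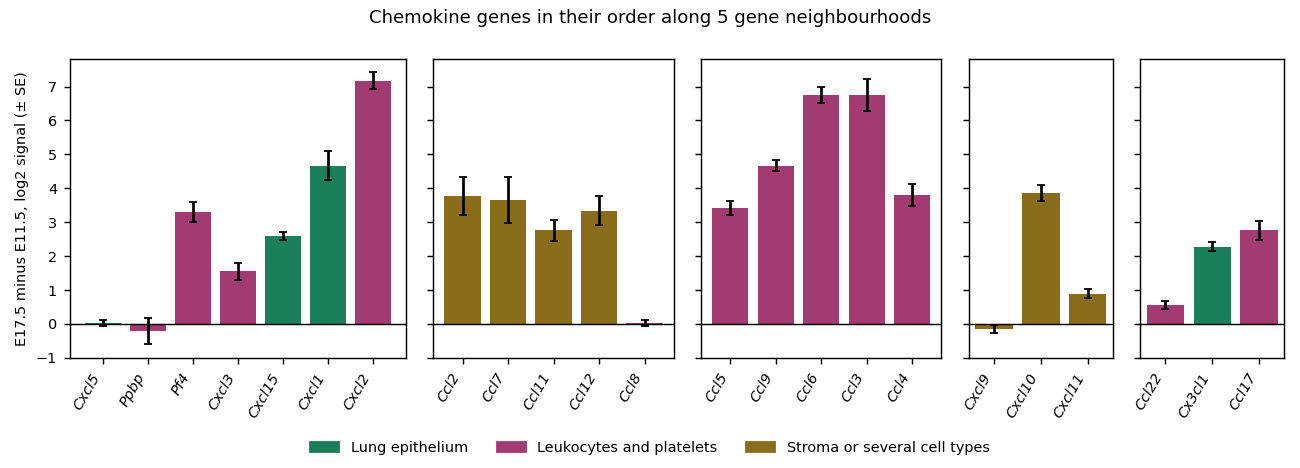
Difference of the mean log2 signal, E17.5 minus E11.5 (y axis, bars from 0, with the standard error), of chemokine genes in their order along the chromosome, in 5 panels of neighbouring genes, coloured by known source. *Cxcl5* and *Ppbp* are near 0 at 1 end of the first panel and *Cxcl2* is at 7.17 at the other end. Spacing between bars is not to scale.

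Most members are neighbours in the genome, and neighbours did not all move together. The gene order of RefSeq places 23 of the 31 in 5 runs of chemokine genes. In the longest run, of 7 genes, the differences were 0.03 for *Cxcl5*, -0.22 for *Ppbp*, 3.30 for *Pf4*, 1.55 for *Cxcl3*, 2.60 for *Cxcl15*, 4.67 for *Cxcl1* and 7.17 for *Cxcl2*. The run of *Ccl2*, *Ccl7*, *Ccl11*, *Ccl12* and *Ccl8* held rises of 2.76 to 3.78 in its first 4 genes and 0.04 in *Ccl8* at its end. All 5 genes of the run *Ccl5*, *Ccl9*, *Ccl6*, *Ccl3* and *Ccl4* rose, by 3.42 to 6.76. *Cxcl10* (3.86) lies between *Cxcl9* (-0.15) and *Cxcl11* (0.89), with 1 other gene between it and *Cxcl9*. *Cx3cl1* (2.28), of epithelium, lies between *Ccl22* (0.55) and *Ccl17* (2.76), both of leukocytes.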

How the data were processed

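RNA was amplified and biotin labelled by the authors (NuGEN) and hybridised to Affymetrix mouse arrays. They deposited log2 values for 21204 probe sets, 1 column for each of the 10 arrays, with 0 missing. That the scale is log2 was read from the range (2.47 to 15.03). For background correction, normalization and the choice of probe sets: not given in the sources used here. By the platform annotation 17981 probe sets name 1 gene and were kept, while 514 name several and 2709 are not listed there. For 167 genes with several probe sets, none a member, the one with the highest mean was used. No filter on dim genes was applied.

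E17.5 was compared with E11.5 in R 4.3.3 with limma 3.58.1 (lmFit, eBayes), with no other term, after the script was tested on simulated data. An exact two-sided permutation test over the 10 arrays gave p = 0.0079 for each member whose stages did not overlap, which is the smallest it can give. Python 3.11.15 and matplotlib 3.10.9 drew the figures. The members, the gene lists and the tests were chosen with earlier results of these data known. Arrays' values are given in full, in each source group, for the 4 members with the largest difference and for those that did not pass or whose call changed under an alternative, and *Cxcl12* and several receptors were added after their values were seen. In other lists, up to 3 called genes with the largest difference, any 3 or fewer called in the rarer direction and a fixed set of defining markers were followed.

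Results were recomputed after quantile normalization or median centring, with other probe sets for a gene, without those with suffix _x, _s or _a, without dim genes, with the replicate number blocked, with array weights, with trended or robust moderation, against a 2-fold change, and without each array in turn. Leaving out E17.5 replicates 4 and 5 together was added after the data were seen. Protein sequences were not used here.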

Additional observations from a re-analysis of the deposited data

Results flagged for a closer look

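The 87 genes followed by the rule for named genes were checked in each stage for 1 array far from the other 4 (a gap above 0.71 of the 5 arrays' range). This was met 6 times in 174, where chance gives about 1 in 20, or 8.7. Of the chemokine genes, *Cxcl15* was 13.82 on E17.5 replicate 4 (nearest other array 14.09). On the same array *Cd3e* was 8.48 (nearest 5.07) and *Ikbkg* 2.98 (nearest 3.29). On E17.5 replicate 1, *Cd79b* was 10.81 (nearest 10.31) and *Cpa3* 8.47 (nearest 9.75). On E11.5 replicate 1, *Nkx2-1* was 8.73 (nearest 9.49).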

How the results depend on the processing

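Over the 31 chemokine genes and 21 alternatives, 611 of 630 values kept their direction and call, and 19 genes did so under every alternative that gave a value. Each member has 1 probe set, so the alternatives with other probe sets for a gene used the same member values and are no check on them. The count of higher genes was 25 or 26 of 31 under each alternative except leaving out probe sets of suffix _x, _s or _a (25 of 30), a test against a 2-fold change (18) and leaving out dim genes, which left 11 members, of which 11 were higher, with 3 of lung epithelium, 6 of leukocytes and platelets and 2 of stroma or several cell types. The medians of these 3 groups were then 3.45, 5.71 and 1.39, so that their order differed from that over all members. Dim genes were judged by the mean over all 10 arrays. A member within background at E11.5, such as *Cxcl2* or *Ccl3*, therefore stayed only through its high E17.5 signal. The count of 11 and these medians are shaped by that filter and carry no support for a rise. Against a 2-fold change, 4 genes of lung epithelium passed. Of the receptors, 6 of 21 were higher against a 2-fold change, against 10 of 21 as reported. Other settings left fewer receptors to test: 1 of 2 was higher without dim genes, and 6 of 14 without probe sets of suffix _x, _s or _a. Of the inducers, 6 of the 6 left without dim genes were higher, against 11 of 14. Leaving out 1 array kept the counts at 26, 7, 11 and 8. With the replicate number as a block the count was 25, and *Cxcl14* did not pass. Same-numbered arrays did not deviate together (correlations -0.29 to 0.07), which gives no sign of a pairing but cannot exclude one. Median centring moved the median of all genes to -0.10 and quantile normalization to -0.04, and all genes then split into 5920 higher and 6576 lower, and 5676 higher and 6949 lower, against 6568 and 5609 as deposited. The sign turned for genes near 0: *Cxcl5* (-0.10 after median centring, and -0.03 to 0.05 without 1 array), *Ccl8* (-0.09 after median centring), *Ppbp* (0.08 without E17.5 replicates 4 and 5, and -0.42 to 0.09 without 1 array) and *Ccl25* (-0.04 after quantile normalization). *Nkx2-1* was -0.01 with array weights, -0.04 after median centring, -0.47 after quantile normalization and -0.08 to 0.19 without 1 array. The causes were not tested. The number of arrays limits the precision, and signals near background have only a bound.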
